A study of Mus musculus with 6 samples.

Results

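The SNARE and vesicle priming machinery was followed here through 10 genes: Snap25, Stx1a, Vamp1 and Vamp2, which encode SNARE proteins, the complexin genes Cplx1 and Cplx2, the Munc13 genes Unc13a and Unc13b, the CAPS gene Cadps and the SNAP gene Napb. Every probe set of the array annotated to exactly 1 of these genes was taken, where a probe set is a group of short probes read together as 1 transcript signal. This gave 24 of the 45037 probe sets tested, and all 10 genes were present among 18193 named genes. A further probe set annotated to both Vamp1 and E130112N10Rik was left out. Of the 24 probe sets, 23 had a mean signal above 2.92 on the log2 scale, the highest mean of 27 bacterial control probe sets, and the exception was the dimmest probe set of Napb.

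The arrays came from a knockdown experiment in cultured mouse cells. Brains of E12.5 embryos were dissociated and the cells, called NSP cells in the labels, were grown to confluence, split and infected overnight with a lentivirus. The virus carried a REST shRNA in 3 samples and a CTL (control) shRNA in 3 samples, and RNA was taken 6 days later. Nothing in the labels tells if samples within a group came from separate cultures or embryos. The p-values therefore cover only the spread between these 6 samples, which could be technical. The share of cells infected is not given.

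Release of transmitter needs a SNARE protein on the vesicle, a VAMP, to zip together with syntaxin and SNAP-25 on the cell membrane. Munc13 and CAPS proteins prepare docked vesicles for this step, complexins bind the assembled SNARE complex and hold it ready for calcium, and SNAP adaptors such as the product of Napb bring in the ATPase NSF that takes spent complexes apart. REST is a zinc finger repressor of neuronal genes in other cells. It acts through a DNA sequence named RE1, and Snap25 is commonly listed among its targets. The comparison asks which of these transcripts differed when REST was targeted.

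For each gene the probe set with the highest mean signal over all 6 arrays is called its brightest. The membrane SNARE Snap25, both complexins, the Munc13 gene Unc13a and the CAPS gene Cadps read higher with REST shRNA, with log2 differences from 0.66 to 1.58 for their brightest probe sets and no overlap between the groups. The vesicle SNAREs Vamp1 and Vamp2, the Munc13 gene Unc13b and the disassembly adaptor Napb had brightest probe sets with differences from -0.49 to 0.06, and their groups overlapped. Stx1a lay between, at 0.50, with overlapping groups.

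No member passed the threshold of an adjusted p under 0.05, and neither did any other probe set. Across all 45037 probe sets limma called 0 (0%), with 692 higher (1.54%) and 868 lower (1.93%) at an unadjusted p under 0.05. Centring each array on its median turned that split to 899 higher and 675 lower. The lowest adjusted p of the table, 0.922, was shared by the brightest Snap25 probe set, and the other 23 member probe sets had an adjusted p of 1.00 after rounding. An exact two-sided permutation test of 3 against 3 arrays cannot go below 0.1, and it gave 0.1 for each brightest probe set of Snap25, Cplx1, Cplx2, Unc13a and Cadps. The counts below at an unadjusted p under 0.05 are therefore descriptions to be read against the share of all features that reach the same mark. The members were chosen with earlier results of these data known, so a count above that share is no test of the list.

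At that mark 5 of the 10 genes were higher by their brightest probe set and 0 were lower, where 1.69% of all named genes were higher and 1.04% lower. Counted by probe set, 9 of 24 were higher, where 1.54% of all probe sets were, and 0 were lower, where 1.93% were. The groups did not overlap, with REST shRNA higher, for 5 of the 10 genes, against 4.91% of all named genes, and for 10 of the 24 probe sets, against 4.35% of all probe sets. No member probe set had all REST shRNA arrays below all control shRNA arrays, which 3.9% of all probe sets had. The median log2 difference was 0.58 over the 10 genes and 0.04 over all named genes. Of the 10 genes, 7 had a positive difference, as did 57.2% of all named genes.

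**Figure D1:**
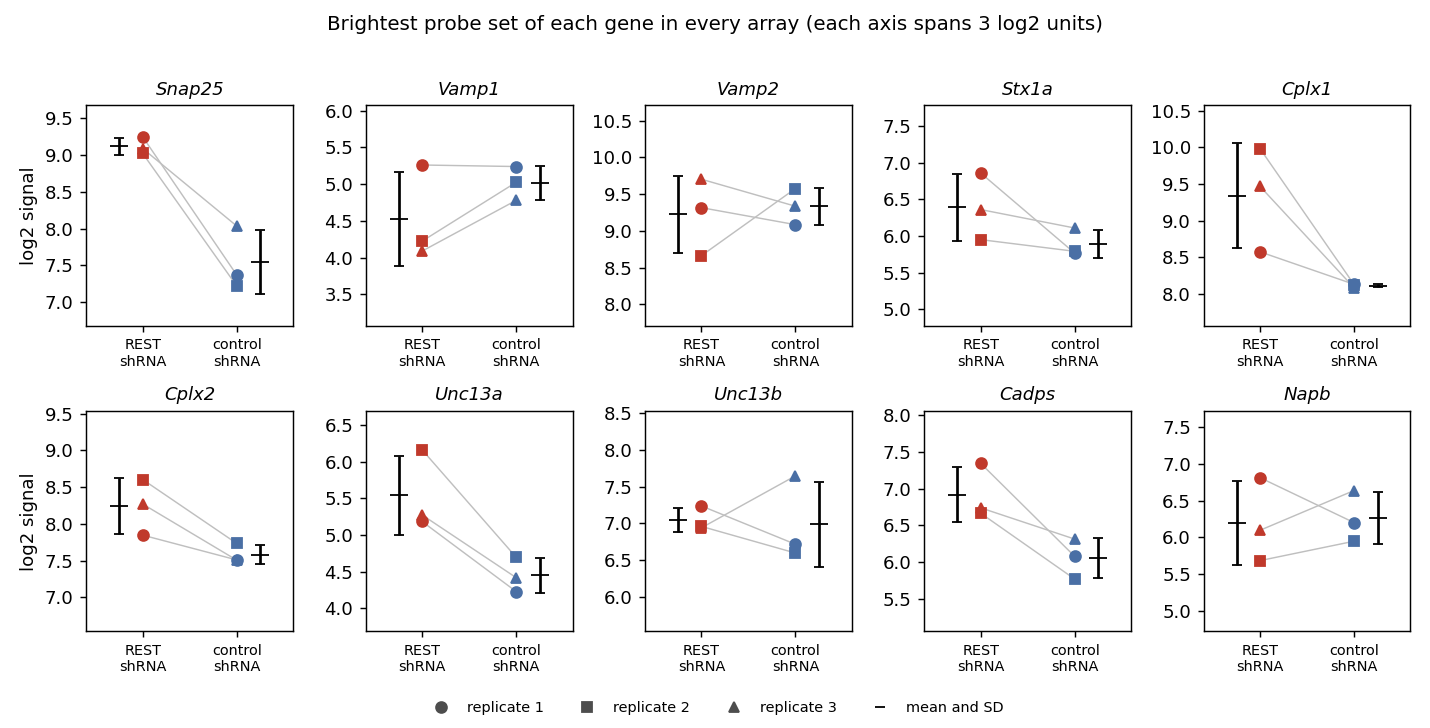
Log2 signal of the brightest probe set of each gene in the 3 REST shRNA arrays (red, left) and the 3 control shRNA arrays (blue, right), with grey lines joining arrays of the same replicate number and black bars for the mean and SD; each axis spans 3 log2 units, so slopes but not heights can be set against each other between genes. The REST shRNA points lie above all control shRNA points for Snap25, Cplx1, Cplx2, Unc13a and Cadps.

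The labels were checked on the targeted transcript. All 4 probe sets of Rest were lower in every REST shRNA array than in any control shRNA array, with levels from 57.3% to 71.5% of control. Pearson correlations between arrays ran from 0.955 to 0.993, and the lowest was between REST shRNA arrays 2 and 3. Array signals differ in brightness between probe sets for technical reasons, so levels are compared only within a probe set. The deposited values put all arrays on nearly one distribution, so each difference is relative to the remaining signal of its array. In bulk RNA, fewer cells of a type and less RNA per cell cannot be told apart.

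Among the SNAREs, Snap25 showed the largest difference. SNAP-25 sits on the inner face of the cell membrane and gives the complex helices from both of its ends. Its brightest probe set (1416828_at) read 9.25, 9.02 and 9.09 in REST shRNA arrays 1, 2 and 3 and 7.37, 7.22 and 8.03 in control shRNA arrays 1, 2 and 3, on the log2 scale. The REST shRNA arrays lay close together and all above the control arrays, of which array 3 was the highest. The log2 difference was 1.58 ± 0.24 (SE, limma; 95% CI 1.01 to 2.15), a 2.99-fold higher signal, with an unadjusted p of 0.00032, ranked 14 among all probe sets. A separate probe set of the gene (1447763_at) read 8.72, 8.64 and 8.64 in the REST shRNA arrays and 6.92, 6.87 and 7.72 in the control arrays. It gave the same picture, with a difference of 1.50 ± 0.25 and an unadjusted p of 0.00057.

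Stx1a encodes syntaxin 1A, the partner of SNAP-25 on the cell membrane. Its brightest probe set (1437390_x_at) read 6.86, 5.95 and 6.36 in REST shRNA arrays and 5.77, 5.79 and 6.11 in control shRNA arrays. REST shRNA array 1 stood highest, and REST shRNA array 2 lay below control array 3. The difference was 0.50 ± 0.26 (SE, log2; 95% CI -0.10 to 1.11), with an unadjusted limma p of 0.0913. A second, dim probe set (1448366_at) differed by 0.32 ± 0.22. Both were higher in all 3 pairs of arrays with the same number, and most in pair 1, so that without REST shRNA array 1 the difference of the brighter one was 0.27. The ID of the brighter probe set ends in _x_at, which marks probes that may bind other transcripts.

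The vesicle SNAREs gave no such difference. Vamp2, the main VAMP of synaptic vesicles in the brain, read 9.32, 8.66 and 9.70 in REST shRNA arrays and 9.09, 9.58 and 9.34 in control shRNA arrays (1420833_at). The REST shRNA arrays held both the highest and the lowest of these values. The difference was -0.11 ± 0.29 (SE, log2; 95% CI -0.79 to 0.58), and -0.04 ± 0.29 for its other probe set (1420834_at). Leaving out REST shRNA array 2, the low one, turned the difference of the brighter probe set to 0.18, and leaving out control array 2 turned it to 0.0171.

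Vamp1, the VAMP found most in spinal cord and brainstem, was dimmer and its probe sets disagreed. The brighter (1421863_at) read 5.26, 4.22 and 4.09 in REST shRNA arrays and 5.24, 5.02 and 4.78 in control shRNA arrays. REST shRNA array 1 was as high as the highest control array, and the other REST shRNA arrays lay below all controls. The difference was -0.49 ± 0.33 (SE, log2; 95% CI -1.27 to 0.29), and -0.86, -0.34 and -0.27 without REST shRNA array 1, 2 or 3. Without array 1 the unadjusted limma p was 0.00629. Without both arrays numbered 1 the difference was -0.75, with an unadjusted limma p of 0.0270. The second probe set (1421862_a_at) differed by 0.20 ± 0.25, with overlapping groups, so the sign for Vamp1 depends on the probe set.

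Both complexins read higher, and with a pattern over the arrays unlike that of Snap25. Complexin 1 was read by 3 probe sets. The brightest (1448832_a_at) read 8.58, 9.98 and 9.47 in REST shRNA arrays and 8.13, 8.13 and 8.09 in control shRNA arrays. The control arrays were nearly level, and the REST shRNA arrays were spread, with array 1 lowest and array 2 highest. The difference was 1.22 ± 0.34 (SE, log2; 95% CI 0.42 to 2.03), a 2.34-fold higher signal, with an unadjusted limma p of 0.00902. The next probe set (1417746_at) differed by 1.21 ± 0.30 with an unadjusted p of 0.00533. The third and dimmest (1417747_at) differed by 0.64 ± 0.33, and REST shRNA array 1, at 4.94, lay below control array 2, at 5.18.

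Complexin 2 was also read by 3 probe sets, and none of them overlapped between the groups. The brightest (1455672_s_at) read 7.85, 8.60 and 8.27 in REST shRNA arrays and 7.51, 7.73 and 7.51 in control shRNA arrays. REST shRNA array 1 stood just above the highest control array. The difference was 0.66 ± 0.22 (SE, log2; 95% CI 0.13 to 1.18), a 1.58-fold higher signal, with an unadjusted limma p of 0.0215. The second probe set (1421477_at), at 7.59, 8.16 and 7.98 in REST shRNA arrays and 6.72, 7.20 and 6.30 in control shRNA arrays, gave the largest difference of the gene, 1.17 ± 0.27 with an unadjusted p of 0.00358. The third (1436383_at) differed by 0.86 ± 0.23. The brightest probe set missed the unadjusted mark when some single arrays were left out. Its p was 0.0511 without REST shRNA array 2, 0.0509 without REST shRNA array 3, 0.0665 without control array 1 and 0.0602 without control array 3.

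**Figure D2:**
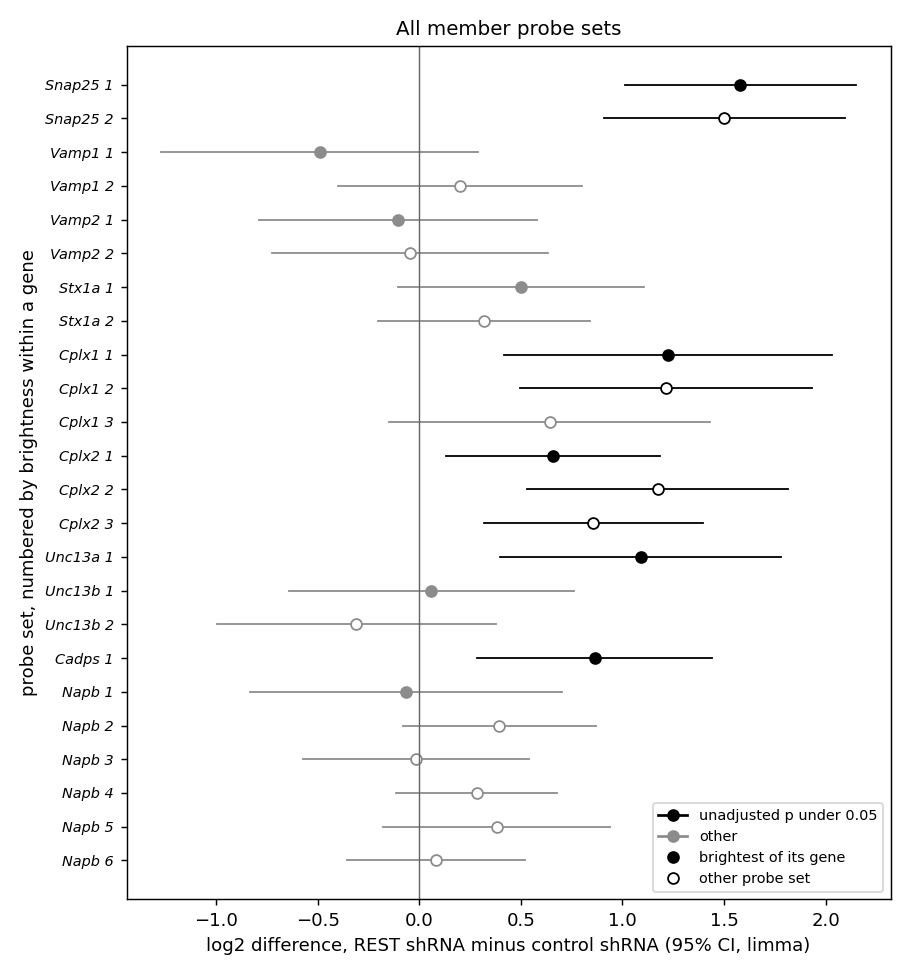
Log2 difference (REST shRNA minus control shRNA) of each of the 24 member probe sets with its 95% confidence interval from limma; probe sets are numbered by brightness within a gene, filled points are the brightest of their gene, and black marks an unadjusted p under 0.05. All probe sets of Snap25, Cplx1 and Cplx2 lie right of 0, while those of Vamp1, Unc13b and Napb fall on both sides.

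Of the priming factors, Unc13a and Cadps read higher and Unc13b did not. Unc13a encodes Munc13-1, which opens syntaxin so that SNARE complexes can form, and 1 probe set (1437472_at) read it. It gave 5.18, 6.16 and 5.27 in REST shRNA arrays and 4.23, 4.70 and 4.42 in control shRNA arrays. Each REST shRNA array was above each control array, with REST shRNA array 2 the highest. The difference was 1.09 ± 0.29 (SE, log2; 95% CI 0.40 to 1.78), a 2.13-fold higher signal, with an unadjusted limma p of 0.00751.

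Unc13b, which encodes the related Munc13-2, read 7.24, 6.96 and 6.94 in REST shRNA arrays and 6.71, 6.59 and 7.65 in control shRNA arrays (1417757_at). Control array 3 was the highest of all and the other control arrays the lowest. The difference was 0.06 ± 0.30 (SE, log2; 95% CI -0.64 to 0.76), and a dimmer probe set (1443308_at) differed by -0.31 ± 0.29. The brighter one read -0.0372 without REST shRNA array 1, -0.0765 without control array 1 and -0.14 without control array 2. The interval still holds changes of the size of Stx1a, so these arrays do not exclude a difference of that size.

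Cadps encodes CAPS1, a priming factor studied most for dense core vesicles. Its single probe set (1448955_s_at) read 7.34, 6.67 and 6.74 in REST shRNA arrays and 6.08, 5.77 and 6.31 in control shRNA arrays. The suffix _s_at marks probes that may read several transcripts, as for the brightest probe set of Cplx2, and no other probe set of Cadps was there to compare. REST shRNA array 1 was the highest and the groups did not overlap. The difference was 0.86 ± 0.24 (SE, log2; 95% CI 0.28 to 1.44), a 1.82-fold higher signal, with an unadjusted limma p of 0.00971.

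Napb, which encodes the brain form of the SNAP adaptor, had 6 probe sets and no clear direction. The brightest (1423172_at) read 6.81, 5.68 and 6.10 in REST shRNA arrays and 6.20, 5.95 and 6.64 in control shRNA arrays, with full overlap and a difference of -0.06 ± 0.32 (SE, log2; 95% CI -0.83 to 0.70). Without REST shRNA array 2 it differed by 0.19 and without control array 3 by 0.12. The 6 differences ran from -0.06 to 0.39, and 4 of them were positive. The highest, 0.39 ± 0.20, came from 1450888_at, which read 6.29, 5.73 and 5.85 in REST shRNA arrays and 5.56, 5.40 and 5.72 in control shRNA arrays. Its groups stood just apart, by the narrow gap between REST shRNA array 2 and control array 3, and its unadjusted limma p was 0.0900.

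Set by replicate number, the genes fell into different orders over the pairs. In pair 1 all 10 brightest probe sets were higher with REST shRNA, and in each of pairs 2 and 3 it was 7. The share of all named genes higher in each pair was not counted, so these counts cannot be read as a result about the members. The median difference in pairs 1, 2 and 3 was 0.57, 0.62 and 0.40 for the members. For all named genes it was 0.01, -0.01 and 0.11. A log2 difference of at least 1 was reached by Snap25, Cadps and Stx1a in pair 1 (3 of 10, where 1.45% of named genes did), by Cplx1, Snap25 and Unc13a in pair 2 (3 of 10, where 3.44% did) and by Cplx1 and Snap25 in pair 3 (2 of 10, where 2.83% did). Snap25 differed by 1.88, 1.81 and 1.06 in pairs 1, 2 and 3. It reached that size in all 3, and no other member did.

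The complexins had their smallest difference in pair 1. Cplx1 differed by 0.44, 1.85 and 1.38 in pairs 1, 2 and 3, and Cplx2 by 0.34, 0.87 and 0.76. Cadps ran the other way, with 1.27, 0.90 and 0.43, and Stx1a, at 1.09, 0.16 and 0.25, was also largest in pair 1. Unc13a differed by 0.95, 1.46 and 0.85. Those 5 genes and Snap25 were higher in all 3 pairs, 6 of 10 where 13.6% of all named genes were. Vamp2 was lower in pair 2 alone, at -0.91 against 0.23 and 0.37 in pairs 1 and 3, and Napb was higher in pair 1 alone, at 0.61 against -0.26 and -0.54 in pairs 2 and 3. Unc13b differed by 0.52, 0.36 and -0.71, and the pair with the negative value holds the high control array 3.

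**Figure D3:**
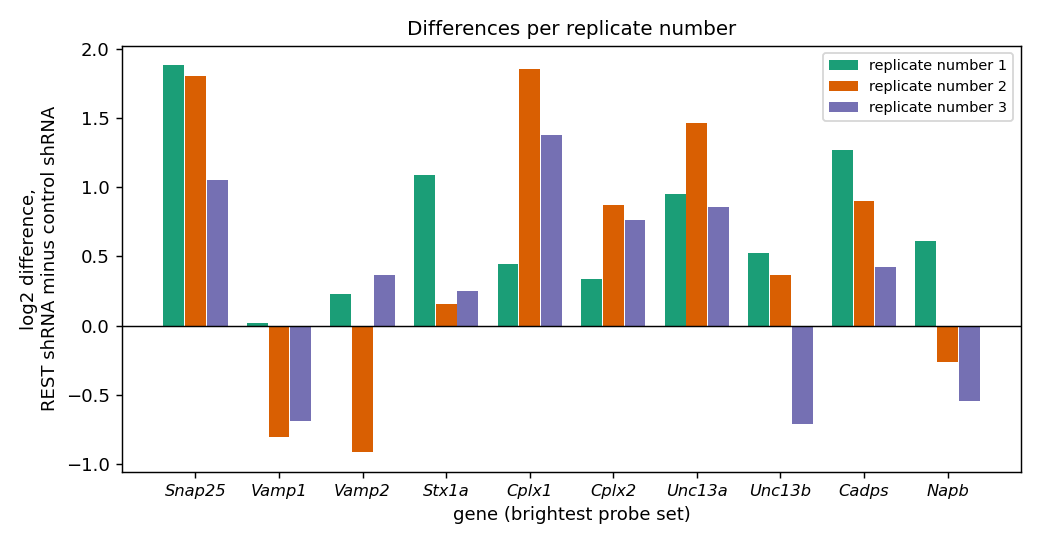
Log2 difference between the REST shRNA and the control shRNA array of the same replicate number, for the brightest probe set of each gene; bars start at 0 and colours mark the replicate number. Snap25 exceeds 1 for each number, Cplx1 and Cplx2 are smallest for number 1, and Cadps and Stx1a are largest for number 1.

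REST shRNA arrays 2 and 3 shared the lowest array correlation, which does not single out either, and the differences were taken again without array 2. They were then 1.63 for Snap25, 0.90 for Cplx1, 0.48 for Cplx2, 0.78 for Unc13a, 0.99 for Cadps and 0.72 for Stx1a. As many genes as with all arrays, 5, were higher at an unadjusted limma p under 0.05, though not the same ones. Stx1a was now among them, with a p of 0.0164, and Cplx2 was not. Of all 45037 probe sets, 1434 were then higher at that mark, against 692 with all arrays, so the share of all features rose while the member count did not. Without REST shRNA array 3 instead, 4 member genes and 652 of all probe sets were higher.

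Related genes were set against each other within each array as a log2 ratio, 8 contrasts chosen after the values were seen. The shift of that ratio between the groups was read, not the ratio itself, since probe sets differ in brightness. For Snap25 to Snap23, the widely expressed relative of SNAP-25, the ratio shifted by 1.46 with no overlap (exact permutation p = 0.1, adjusted over the 8 contrasts 0.4). The ratio of Cplx1 to Cplx2, by their brightest probe sets, shifted by 0.57, also with no overlap and the same p and adjusted p by the exact permutation test. That Cplx2 probe set had the smallest difference of its gene, 0.66. The others differed by 1.17 and 0.86, against 1.22 for the brightest of Cplx1, so the size of this shift depends on the probe set. The ratio of Unc13a to Unc13b shifted by 1.03, but control array 2 lay above the lowest REST shRNA array (exact permutation p = 0.2, adjusted 0.533). The ratio of Cadps to Cadps2, the related CAPS gene, shifted by only 0.27 with overlapping groups, and those of Stx1a to Stx2, Napb to Napa, Vamp2 to Vamp1 and Vamp2 to Vamp3 shifted by 0.47, -0.27, 0.39 and -0.03, also with overlap. None of the 8 could pass the threshold with 3 arrays a group.

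The rest of the release machinery was read from a separate list. Of 20 listed genes, among them regulators of SNARE assembly and disassembly, 17 were measured and the other 3 were not analysed here. At an unadjusted p under 0.05, 2 of the 17 were higher and 0 lower, where 1.69% and 1.04% of all named genes were. The difference was positive for 13 of the 17, as it was for 57.2% of all named genes. The median was 0.18. Rph3a, which encodes the Rab3 effector rabphilin, differed by 1.40 ± 0.28 (SE, log2), with 0.91, 1.79 and 1.49 in pairs 1, 2 and 3. Cadps2 differed by 0.60 ± 0.23, with 0.17, 1.08 and 0.55 in pairs 1, 2 and 3. The ATPase Nsf, at 0.18 ± 0.26, the adaptors Napa, at 0.20 ± 0.23, and Napg, at 0.23 ± 0.18, and the tomosyn gene Stxbp5, at -0.35 ± 0.25, did not reach that mark. Cplx3, Cplx4 and Unc13c, further relatives of the complexins and Munc13 genes, had means below the highest bacterial control over all 6 arrays, with group means from 2.33 to 2.94.

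The remaining SNAREs, of the cell surface and of inner membranes, had differences centred near 0. Of 34 listed genes 33 were measured, with a median difference of 0.03. At an unadjusted p under 0.05 limma counted 0 in either direction, where 1.69% of all named genes were higher and 1.04% lower. With 33 genes a count of 0 is near those shares. The smallest p values belonged to Stx17, a syntaxin of autophagosomes, at -0.23 ± 0.14 (SE, log2), and to Bet1, a SNARE of transport from the endoplasmic reticulum to the Golgi, at -0.24 ± 0.20. Stx3, a syntaxin of the cell surface, had the largest difference, 0.53 ± 0.49, which was 1.55 in pair 2 and at most 0.0332 in pairs 1 and 3. Snap23 differed by 0.12 ± 0.25 and Vamp3, the VAMP of constitutive recycling, by -0.08 ± 0.14.

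Neuron markers moved in part with the members. Of 19 such genes 18 were above the bacterial controls, 5 were higher at an unadjusted p under 0.05 and 0 lower, with a median of 0.24. Of all named genes 1.69% were higher at that mark, 1.04% were lower and 57.2% had a positive difference. The 5 were Crmp1, Stmn4, Gap43, Nefl and Rbfox3. The difference was positive for 13 and negative for 6, and the 6 were Thy1 (-0.63), Elavl4 (-0.21), Nsg2 (-0.20), Dcx (-0.20), Ncam1 (-0.12) and Map2 (-0.10). Crmp1, a cytosolic protein of growing axons, differed by 0.87 ± 0.18 (SE, log2) and Stmn4, a tubulin-binding stathmin, by 1.45 ± 0.37. The summed signal of the 19 genes, on the linear scale, ran from 11006 to 18709 in REST shRNA arrays and from 11811 to 14576 in control shRNA arrays. Their mean difference was 0.50, 0.08 and 0.62 in pairs 1, 2 and 3, and that of the 10 members was 0.74, 0.54 and 0.32. The part of these markers in the differences of the members was not tested.

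Markers of other cells were read in the same way, beside the 1.69% of all named genes higher and 1.04% lower at the unadjusted mark. All 15 progenitor markers were above the bacterial controls, 0 were higher and 1, the receptor phosphatase gene Ptprz1, was lower at the unadjusted mark, at -0.35 ± 0.15 (SE, log2), with a list median of -0.25. The difference was positive for Hes1 (0.37), Nes (0.31) and Top2a (0.04) and negative for the other 12, where 57.2% of all named genes were positive. Fabp7, which binds fatty acids in radial glia, differed by -0.40 ± 0.24. Their summed signal ran from 22674 to 26333 in REST shRNA arrays and from 26337 to 28989 in control shRNA arrays. The 10 astrocyte markers had a median of -0.36 and a mean difference of -0.11, -1.39 and 0.09 in pairs 1, 2 and 3. Slc1a2, a glutamate transporter, was their 1 lower gene at -0.70 ± 0.20, and the growth factor receptor gene Fgfr3 differed by -0.70 ± 0.34. Their summed signal ran from 7912 to 17976 in REST shRNA arrays and from 15466 to 17507 in control shRNA arrays, and the low end was REST shRNA array 2. In that array Vamp2 was also lowest, while Cplx1, Cplx2 and Unc13a were highest. It also had the lowest mean of the oligodendrocyte markers of all 6 arrays, 8.09. Its mean of the neuron markers, 8.40, was the lowest of the REST shRNA arrays, with control arrays 1 and 2 lower at 8.21 and 8.32.

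The 10 measured oligodendrocyte markers of 11 had a median of 0.04 and a mean difference of 0.53, -0.37 and 0.71 in pairs 1, 2 and 3. The myelin genes differed among themselves, with Mobp at 1.77 ± 1.01 (SE, log2), Mag at 1.02 ± 0.93 but -1.03 in pair 2, Mbp at 0.04 and Cnp at -0.28. The list had summed signals from 8450 to 17881 in REST shRNA arrays and from 11221 to 14342 in control shRNA arrays. Of 9 microglia markers 4 were above the bacterial controls, and their summed signal, 88.1 to 97.8 in REST shRNA arrays and 87.4 to 114 in control shRNA arrays, was small. Aif1 differed by 1.02 ± 0.30, with a mean of 3.43 in REST shRNA arrays and 2.40 in control shRNA arrays, near the bacterial controls, and Cd68 by -0.76 ± 0.36. Of 10 fibroblast and vascular markers 7 were above the bacterial controls, with a median of 0.14 and summed signals from 122 to 214 in REST shRNA arrays and from 129 to 151 in control shRNA arrays. The collagen genes Col1a1 and Col3a1 differed by 0.42 ± 0.18 and 0.23 ± 0.21. The part of these cell types in the differences of the members was not tested.

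**Figure D4:**
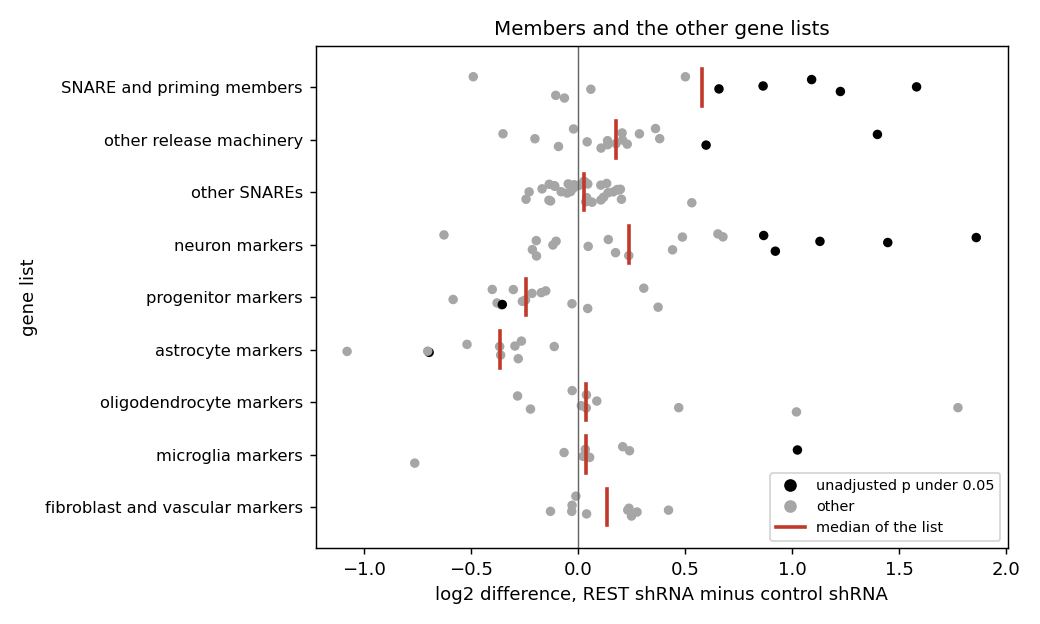
Log2 difference (REST shRNA minus control shRNA) of the brightest probe set of each gene, for the 10 members (top row) and 8 other gene lists; each point is a gene, black marks an unadjusted p under 0.05, and the red line is the median of the list. The median is 0.58 for the members, 0.18 for the other release machinery and 0.03 for the other SNAREs.

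Over the 6 arrays, the genes whose signal ran most like that of Snap25 were sought by Pearson's r among 13514 named genes above the bacterial controls. They were Rasa4 (r = 0.994), Slc30a7 (0.993), Pik3r5 (0.990), Tmod4 (0.983) and Gdf9 (0.977). Their differences were small, from 0.06 for Gdf9 to 0.37 for Pik3r5 on the log2 scale, against 1.58 for Snap25. All but Slc30a7 were dim, with group means from 3.08 for Gdf9 to 3.94 for Tmod4, not far above the highest bacterial control at 2.92. Among the members, r with Snap25 was 0.93 for Cadps, 0.77 for Stx1a, 0.76 for Unc13a, 0.74 for Cplx1, 0.70 for Cplx2 and -0.51 for Vamp1. All of these points share the same 6 arrays and the same group difference, so r is a description only.

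Promoters of 8 members were in the RefSeq table of assembly GRCm38.p6, which holds 250 bases before and 50 bases after the start of each gene, and those of Snap25 and Vamp2 were not used here. The core of the RE1 element was searched on both strands as CAGCACC, any 2 bases, then GGACAG, counting matched letters of the 13. No member held at least 11 matched letters, which 1.92% of 32851 promoters did. Unc13a and Vamp1 reached 10, as did 14.9% of promoters. The left arm CAGCACC stood whole in Unc13a alone (7.14% of promoters), and the right arm GGACAG in Unc13a and Cadps (22.2% of promoters), so 1 of the 8 members held both arms, as did 1.73% of promoters. The windows printed here for Unc13a and Cadps do not hold the right arm whole. Windows were planned to be printed only from 11 matched letters, which no member reached. The best windows of Unc13a, Vamp1 and Cadps are shown as a description only, and these 3 genes were chosen after the search. Capitals mark letters that match the core, and each line runs 5′ to 3′ on the strand named.
Unc13a, chr8:71671726-71671746, plus strand, bases 12 to 32 after the start: cttCAGCACCggGGgCgcgga
Vamp1, chr6:125215366-125215386, plus strand, bases -215 to -195 from the start: actCAGCggCggaGACAGagt
Cadps, chr14:12823167-12823187, minus strand, bases -108 to -88 from the start: cctCtcCgCCgcGGACActgg
The window of Unc13a holds the whole left arm and 3 of the 6 letters of the right arm beside it. That of Vamp1, whose probe sets disagreed in sign, matches as many letters. Cadps reached only 9, as did Cplx1, Stx1a and Unc13b, and Cplx2 and Napb reached 8. At least 9 letters were matched in 6 of the 8 members and in 62.0% of promoters. The search covers only this window at the start and says nothing of elements elsewhere.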

How the data were processed

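RNA of 6 samples was measured on 1-colour Affymetrix arrays. The authors deposited a table of log2 signals, 1 per probe set and array. Its range, 1.00 to 14.2, showed the unit. How background correction, probe summary and normalization were done is not given in the sources used here. Per the labels' protocols, amplified cDNA was labelled with biotin. Groups and replicate numbers came from the sample titles.

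Names came from the platform annotation, 34958 probe sets with 1 gene, 932 with several and 9211 unlisted. 64 control probe sets were left out. The probe set of a gene with the highest mean signal was its brightest. A limma 3.58.1 model in R 4.3.3 was fitted over 45037 probe sets, with group as the sole term, two-sided, with Benjamini-Hochberg adjustment over all of them, 4 residual and 2.9 prior degrees of freedom. It was tested on simulated data. The number of arrays limits the precision.

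Same-numbered arrays deviated together from their groups (r = 0.117, 0.282 and 0.402 for numbers 1, 2 and 3, all above 0.1), so the titles' numbers were taken to pair the arrays. Pair 1 is barely past the limit, and a differently numbered pair reached 0.231. The replicate block was an alternative, beside other scalings, filters, variance models, probe set choices and left-out arrays.

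The members and gene lists were chosen with earlier results of these data known. Named were all members, Rest, the genes with the smallest p of each list and the 5 genes most like Snap25. Genes outside this rule, such as the 5 neuron markers, Cplx3 and Nsf, were chosen after their values were seen.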

Additional observations from a re-analysis of the deposited data

How the results depend on the processing

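The adjusted count over all probe sets was 0 in each of 19 alternatives. With the replicate number as a block, 5 member genes and 10 member probe sets were higher at an unadjusted p under 0.05, where 5 and 9 were without it. Over all probe sets the block gave 844 higher and 1088 lower, and it changed no call at the adjusted threshold. An unadjusted p under 0.05 was kept in all 19 alternatives by Snap25 and Unc13a, in 18 of 19 by Cplx1 (0.0661 without both arrays numbered 3), in 17 of 18 by Cadps (0.0687 without both arrays numbered 1) and in 13 of 19 by Cplx2. Member genes higher at that mark numbered 3 without both arrays numbered 3 and 3 to 6 over all alternatives. Leaving out probe sets whose ID marks possible matches to several transcripts removed Cadps and left 4 member genes at that mark. The members' median of 0.58 was then 0.32, and it was 0.43 without both arrays numbered 1, and 0.46 to 0.61 leaving out 1 array. The other release machinery had 1 higher gene with the intensity trend, with array weights, without both arrays numbered 2 and without both numbered 3, and 1 to 2 leaving out 1 array. The other SNAREs had 1 with the mean of all probe sets per gene and 0 to 1 leaving out 1 array. Signs turned for 3 members near 0. Vamp2 read 0.0669 with array weights, 0.30 without both arrays numbered 2 and -0.34 to 0.18 leaving out 1 array. Napb read 0.24 with array weights, 0.18 with the mean of all probe sets, 0.0354 without both arrays numbered 2, 0.17 without both numbered 3 and -0.37 to 0.19 leaving out 1 array. Unc13b read -0.13 with the mean of all probe sets, -0.17 without both arrays numbered 1, -0.0932 without both numbered 2 and -0.14 to 0.39 leaving out 1 array. Over all probe sets, 692 higher and 868 lower at the unadjusted mark compare with 1318 higher with array weights and 324 to 1434 higher and 513 to 1367 lower leaving out 1 array. Fits with fewer features gave 323 higher and 195 lower with 1 probe set per gene, and 345 and 193 with the mean per gene. In the promoter search 0 members held at least 11 matched letters, 1 held the left arm and 2 the right arm when each was searched alone. Where not shown by fewer features or arrays, the cause was not tested.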
